A study of Rattus norvegicus with 12 samples.

Results

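RBPMS knockdown was compared directly with RBFOX2 knockdown in PAC1 cells, a rat pulmonary artery smooth muscle cell line, to find the transcripts whose abundance depended on which of the splicing regulators was depleted. The comparison used 6 of the 12 libraries of the series, 3 of RBPMS-depleted cells (RBPMS-KD) and 3 of RBFOX2-depleted cells (RBFOX2-KD), chosen by their sample labels. Control and QKI-KD libraries had no weight in the difference, and control levels are given as background only. Where a group is called highest or lowest for a gene, it is among control, RBPMS-KD and RBFOX2-KD. Of 33294 gene symbols in the count table, 18438 had enough counts to be tested. A positive log2 difference means a higher level in RBPMS-KD than in RBFOX2-KD.

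Both groups were treated alike apart from the siRNA target. The labels give 90 pmol of siRNA, a repeat transfection 24 h after the first, and RNA collection another 48 h on. In the study's own methods the schedule is longer, and this was not resolved. Control cells received the negative control siRNA C2. The study lists a single siRNA against each of RBPMS and RBFOX2, so an effect of the siRNA itself and an effect of losing its target cannot be told apart. All libraries came from a single cell line. The study describes these knockdowns in PAC1 cells cultured towards the differentiated state. It reports that these control cells were less differentiated than those of its other sequencing experiment.

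RBPMS is an RNA-binding protein with an RNA recognition motif that is enriched in differentiated smooth muscle, where it directs exons towards the splicing pattern of contractile cells. RBFOX2 belongs to the RBFOX family, binds GCAUG elements in introns and 3' ends of transcripts, and acts in many tissues. Either protein can change transcript abundance through exons that alter stability, through binding in mature mRNA, or through other regulators. Gene counts do not show exon use, and splicing was not analysed here.

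The siRNA sense strands are shown because they define the groups. Capitals mark the bases opposite positions 2 to 8 of an antisense strand that starts opposite the last base shown, which is the seed that small RNAs use to pair with other transcripts.
RBPMS siRNA: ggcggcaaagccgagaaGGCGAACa
RBFOX2 siRNA: gcaaugguucaGCCUUUUa
C2 control siRNA: aagguccggcuccCCCAAAUg
The strands differed in length, with 25 bases for RBPMS, 19 for RBFOX2 and 21 for C2. They also differed in their share of G and C, at 64.0%, 42.1% and 61.9%. The antisense seeds read GUUCGCC for RBPMS, AAAAGGC for RBFOX2 and AUUUGGG for C2, and 0 of 724 mature rat miRNAs from RefSeq carried any of these seeds.

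Each target was lowest in the group named for it. Rbpms stood at 6.96, 7.11 and 7.54 CPM, which are counts scaled to a common library size, in RBPMS-KD and at 25.2, 22.8 and 21.4 CPM in RBFOX2-KD, against 39.4, 38.9 and 43.7 CPM in control. Rbfox2 stood at 148, 132 and 146 CPM in RBPMS-KD and at 37.8, 36.2 and 37.9 CPM in RBFOX2-KD, against 152, 152 and 159 CPM in control. Neither gene overlapped between the knockdown groups. The log2 difference was -1.68 (SE 0.065, adjusted p = 1.24e-12) for Rbpms and 1.93 (SE 0.044, adjusted p = 1.47e-15) for Rbfox2. Rbpms was below every control library in RBFOX2-KD too, so the contrast set a deeper loss of Rbpms against a shallower loss.

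Related regulators differed less than the targets. Qk, which encodes the splicing regulator QKI, averaged 265 ± 10.6 CPM (SD, n = 3) in RBPMS-KD and 174 ± 1.32 CPM in RBFOX2-KD, with a log2 difference of 0.61 (SE 0.036, adjusted p = 3.59e-10). Mbnl1, a muscleblind splicing regulator, averaged 494 ± 20.8 and 295 ± 5.38 CPM, a log2 difference of 0.74 (SE 0.035, adjusted p = 1.89e-11). The RBPMS paralogue Rbpms2 was also higher in RBPMS-KD, at 26.2 ± 2.57 against 19.3 ± 0.362 CPM, a log2 difference of 0.45. Differences of Mbnl2 (0.17) and Mbnl3 (-0.13) were small, and that of Mbnl3 did not pass when any library but RBPMS-KD 1 was left out. Rbfox1 had few counts, with 0.0443 to 0.047 CPM against 0.0925 to 0.132 CPM, and its difference passed in edgeR (adjusted p = 0.023) but not in DESeq2 or without any library except RBFOX2-KD 2. Rbfox3 was not tested.

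Library totals were 111.1, 142.7 and 115.0 M counts for RBPMS-KD 1 to 3 and 133.2 to 137.9 M for RBFOX2-KD. RBPMS-KD 2 stood apart from its group, with a chi-square per degree of freedom of 57.8 and 45.6 against RBPMS-KD 1 and 3, compared with 9.27 between those libraries and 4.64 to 6.44 among RBFOX2-KD libraries. Counts of calls and of list members are therefore given without it as well. The labels do not say whether the libraries of a group came from separate cultures, although the study states at least 3 biological replicates per condition.

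A gene was called when its adjusted p was under 0.05 in edgeR's quasi-likelihood test with Benjamini-Hochberg adjustment over all genes tested and its absolute log2 difference was above 1. By this rule 1386 genes, or 7.52% of those tested, were called, of which 572 (3.1%) were higher and 814 (4.41%) lower in RBPMS-KD. Without RBPMS-KD 2 the calls numbered 1321, with 552 higher and 769 lower. At an adjusted p under 0.05 alone, 10455 genes (56.7%) differed, 5312 (28.8%) higher and 5143 (27.9%) lower, with a median absolute log2 difference of 0.39. Many of these differences were small. Counts of list members past the adjusted p are read against 28.8% and 27.9%, and counts of called members against 3.1% and 4.41%. These shares vary with abundance. Among the 4742 tested genes with a mean over 50 CPM, 2207 were higher and 1356 lower at an adjusted p under 0.05. The lists were not matched for abundance, so a list of abundant genes can exceed 28.8% higher without standing out. The median log2 difference over all genes was -0.0096.

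The directions were unevenly spread over abundance. Among 4742 tested genes with a mean over 50 CPM, 89 called genes were higher in RBPMS-KD and 12 were lower. Between 5 and 50 CPM the counts were 118 and 75 of 5938 tested. Below 5 CPM the balance turned, with 132 higher and 238 lower of 3275 genes between 0.5 and 5 CPM, and 233 higher and 489 lower of 4483 genes under 0.5 CPM. The 50 CPM boundary was chosen after the values were seen. With library totals only in place of TMM scaling, the median log2 difference of all genes moved to -0.11, the called genes over 50 CPM became 70 higher and 26 lower, and 31.0% of all calls were higher, against 41.3% with TMM. Without RBPMS-KD 3 the lower calls over 50 CPM numbered 19, and without RBPMS-KD 2 they numbered 8.

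**Figure D1:**
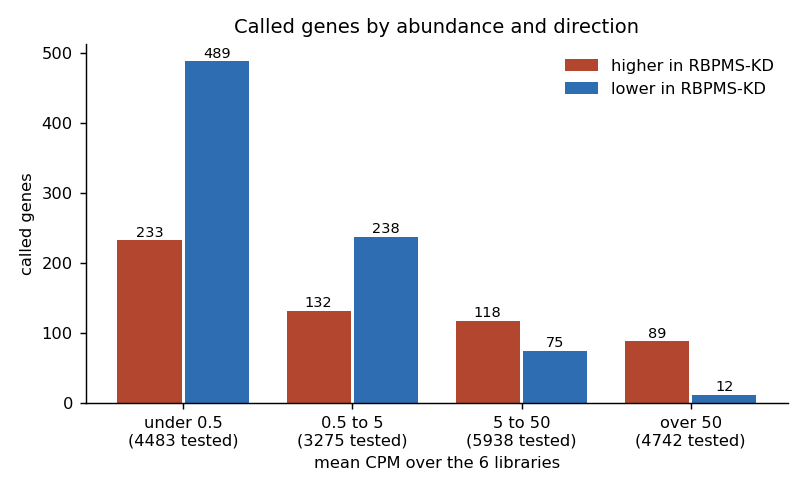
Bars show the number of called genes that were higher (red) or lower (blue) in RBPMS-KD than in RBFOX2-KD, in bins of mean CPM over the 6 libraries. Over 50 CPM 89 called genes were higher and 12 lower, whereas under 0.5 CPM 233 were higher and 489 lower.

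The 12 abundant genes lower in RBPMS-KD were Gas6, Rbm15, Dmpk, Hist1h2bq, Agrn, Nptxr, Paqr8, Tgfb3, Rnf213, Tnc, Gprc5b and Npnt, a set named after its values were seen. Without RBPMS-KD 2 the calls of Gprc5b (-0.97), Npnt (-0.91), Rnf213 (-0.94) and Tnc (-0.96) were lost, and that of Npnt was also lost without RBFOX2-KD 1 (-0.99). Of all calls, 1339 (96.6%) had RBPMS-KD and RBFOX2-KD libraries that did not overlap, compared with 61.5% of all genes tested. Many calls rested on few reads, as 640 had a mean under 50 counts and 460 (33.2%, against 23.4% of tested genes) had a placeholder symbol. Differences above 4-fold were found for 193 called genes, 80 higher and 113 lower.

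**Figure D2:**
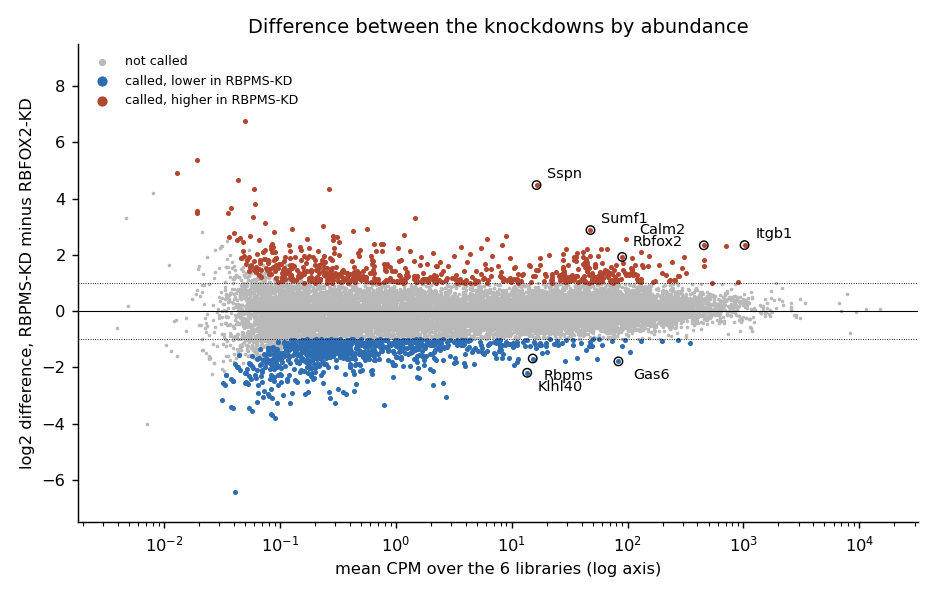
Each point is a tested gene, with mean CPM over the 6 libraries on a log axis and the log2 difference, RBPMS-KD minus RBFOX2-KD, on the other. Red and blue points are called genes and dotted lines mark an absolute log2 difference of 1. Sspn lies at 4.48 and Itgb1 at 2.35, and 1 tested gene without counts in these libraries is not drawn.

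Among called genes whose mean reached 5 CPM, the largest difference was that of Sspn, which encodes sarcospan, a membrane protein of the dystrophin glycoprotein complex. Sspn stood at 32.5, 29.5 and 31.9 CPM in RBPMS-KD and at 1.53, 1.22 and 1.46 CPM in RBFOX2-KD, against 36.2, 36.2 and 39.1 CPM in control. The groups were far apart and RBPMS-KD lay under control. QKI-KD libraries, which have no part in the contrast, were lower still, at 0.635 ± 0.155 CPM, so the low level was not particular to RBFOX2-KD. The level was 22.4-fold higher in RBPMS-KD (log2 difference 4.48, SE 0.092, adjusted p = 5.01e-16). Dag1, which encodes the dystroglycan core of the same complex, stood at 293, 258 and 292 CPM against 90.6, 92.4 and 88.4 CPM, with a log2 difference of 1.63 (SE 0.045). Over the whole complex, Sspn and Dag1 included, 5 of 15 tested members were higher and 5 lower, with a median log2 difference of -0.06. Sntb2, a syntrophin, and Utrn, the dystrophin relative utrophin, were lower in RBPMS-KD, at -0.51 (SE 0.052) and -0.45 (SE 0.075).

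Itgb1 encodes the beta 1 integrin subunit, which pairs with most collagen, laminin and fibronectin binding alpha subunits. It stood at 1726, 1668 and 1729 CPM in RBPMS-KD and at 331, 343 and 331 CPM in RBFOX2-KD, against 2117, 2149 and 2174 CPM in control. The groups did not overlap, and RBFOX2-KD lay far under both of the others. The difference was 5.10-fold (log2 2.35, SE 0.031, adjusted p = 4.66e-18). Integrin subunits moved in both directions, with 5 of 17 higher, Itgb1 included, and 7 lower. Itgb3, the beta 3 subunit, was higher in RBPMS-KD by 0.87 (SE 0.13). Itgb8 and Itga7, subunits of a TGF-beta activating integrin and of a muscle laminin receptor, were lower, at -1.23 (SE 0.091) and -0.88 (SE 0.033).

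Sypl1 and Ncbp2 were also closer to control in RBPMS-KD and were low in RBFOX2-KD. Sypl1, a synaptophysin-like vesicle protein, averaged 165 ± 3.66 against 27.8 ± 0.874 CPM, with 166 ± 2.03 CPM in control. Ncbp2, the small subunit of the nuclear cap-binding complex, averaged 48.4 ± 1.9 against 10.4 ± 0.256 CPM, with 59.7 ± 0.924 CPM in control. Neither gene overlapped between the knockdowns, and the log2 differences were 2.57 (SE 0.035) and 2.22 (SE 0.041).

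For some genes every control library lay between the knockdown groups. Sumf1, whose product activates sulfatases, stood at 80.8, 85.1 and 86.7 CPM in RBPMS-KD, 53.5, 54.4 and 52.0 CPM in control and 11.5, 10.8 and 11.9 CPM in RBFOX2-KD, a log2 difference of 2.88 (SE 0.043). Calm2, a calmodulin gene, stood at 750, 821 and 707 CPM, at 622, 604 and 586 CPM and at 150, 150 and 149 CPM in the same order, a log2 difference of 2.34 (SE 0.046). Calmodulin has near-identical gene copies whose reads can be assigned to the wrong copy, and the study does not state how shared reads were counted. Cdkn2aipnl was of the same kind, with 73.7 ± 5.79 CPM in RBPMS-KD, 45.3 ± 1.62 CPM in control and 15.9 ± 0.676 CPM in RBFOX2-KD.

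Other genes were higher in RBPMS-KD than in RBFOX2-KD and control. Cyp1a1, a monooxygenase induced through the aryl hydrocarbon receptor, stood at 12.5, 16.2 and 17.7 CPM in RBPMS-KD and at 1.97, 2.69 and 2.56 CPM in RBFOX2-KD, against 0.245, 0.698 and 0.0881 CPM in control. RBFOX2-KD was thus above control as well, and the knockdowns differed by 2.69 on the log2 scale (SE 0.20, adjusted p = 7.58e-09). Sprr1a, a small proline-rich protein of cornified envelopes, averaged 10.5 ± 1.08 CPM against 1.78 ± 0.388 CPM, with 1.4 ± 0.339 CPM in control. Sqstm1, the autophagy receptor p62, stood at 1095, 1302 and 1210 CPM against 589, 599 and 575 CPM, a log2 difference of 1.03 (SE 0.065). QKI-KD libraries, which have no part in the contrast, averaged 53.9 ± 6.34 CPM for Cyp1a1, 8.1 ± 0.54 CPM for Sprr1a and 1183 ± 82.7 CPM for Sqstm1, above the control mean for each of them. Actg1, cytoplasmic gamma actin, was higher by 1.01 (SE 0.039), but there RBPMS-KD overlapped with control and RBFOX2-KD was low. Its near relatives among actin genes could share its reads. The calls of Sqstm1 (0.97) and Actg1 (0.96) were lost without RBPMS-KD 2, and with library totals only (0.93 and 0.92).

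**Figure D3:**
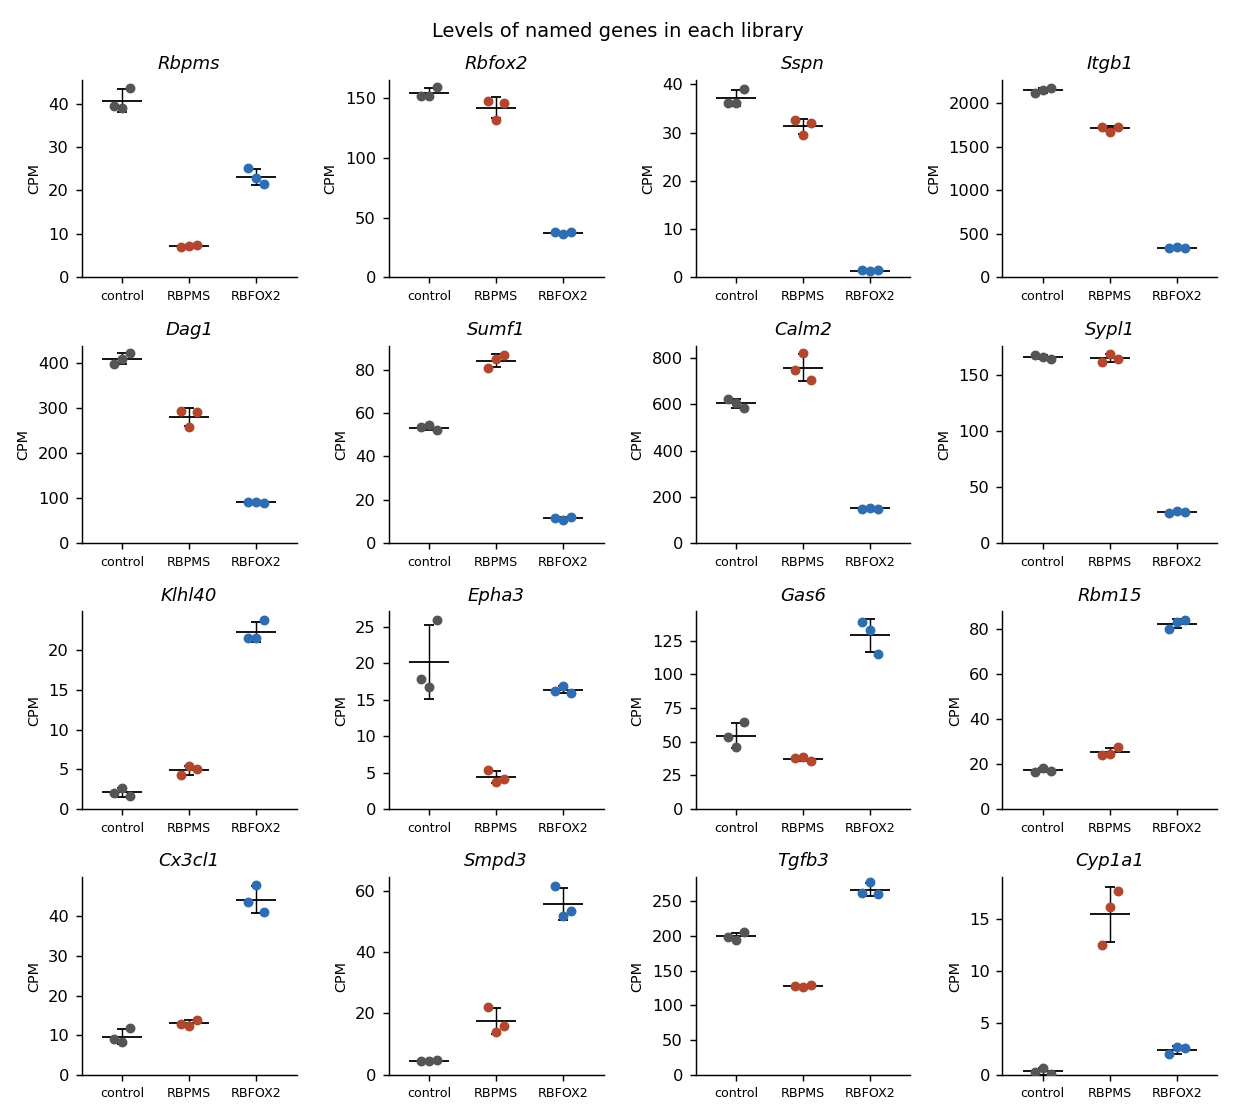
Points are single libraries in CPM on axes that start at 0, with the mean and SD of 3 libraries, for control (grey), RBPMS-KD (red) and RBFOX2-KD (blue). Sspn, Itgb1 and Sypl1 were lowest in RBFOX2-KD, while Klhl40, Rbm15 and Cx3cl1 were highest there.

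Among the genes lower in RBPMS-KD than in RBFOX2-KD, several had their highest level in RBFOX2-KD. Klhl40, a Kelch protein of striated muscle thin filaments, stood at 4.25, 5.38 and 4.99 CPM in RBPMS-KD and at 21.5, 21.6 and 23.8 CPM in RBFOX2-KD, against 2.03, 2.68 and 1.58 CPM in control, a log2 difference of -2.19 (SE 0.13, adjusted p = 3.08e-10). Rbm15, a subunit of the complex that writes N6-methyladenosine, stood at 23.9, 24.6 and 27.5 CPM against 80.1, 83.2 and 83.9 CPM, with 16.5 to 18.1 CPM in control, a log2 difference of -1.70 (SE 0.053). Both genes were thus above control in both knockdowns and by far the highest in RBFOX2-KD. Irs1, the docking protein of insulin and IGF receptors, averaged 4.98 ± 0.747 against 17.3 ± 1.03 CPM, with 5.68 ± 0.273 CPM in control. Smpd3, which encodes neutral sphingomyelinase, stood at 22.1, 14.1 and 16 CPM against 61.5, 51.9 and 53.4 CPM, and at 4.42 to 4.79 CPM in control. The log2 differences of Irs1 and Smpd3 were -1.80 (SE 0.087) and -1.68 (SE 0.12).

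For other genes the knockdowns lay on opposite sides of control. Gas6, the ligand of the TAM receptor kinases, stood at 37.7, 38.8 and 35.8 CPM in RBPMS-KD, 53.2, 45.8 and 64.6 CPM in control and 139, 133 and 115 CPM in RBFOX2-KD, a log2 difference of -1.79 (SE 0.091). Ppp1r3c, a glycogen-targeting subunit of protein phosphatase 1, Uba7, the enzyme that activates the ubiquitin-like protein ISG15, and Angpt1, the ligand of the receptor TIE2, showed the same order of groups, with log2 differences of -1.70 (SE 0.085), -1.67 (SE 0.10) and -1.50 (SE 0.11). Epha3, an ephrin receptor, differed in another way. It stood at 5.36, 3.71 and 4.10 CPM in RBPMS-KD and at 16.2, 16.9 and 16 CPM in RBFOX2-KD, and control, at 17.8, 16.7 and 26.0 CPM, overlapped with RBFOX2-KD. Its log2 difference was -1.91 (SE 0.16).

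Genes of the unfolded protein response and of the amino acid response driven by ATF4 were higher in RBPMS-KD. When misfolded proteins build up in the endoplasmic reticulum, sensors switch on chaperones through ATF6 and XBP1, and raise translation of ATF4, which activates genes for amino acid supply and for recovery of protein synthesis. All 26 members tested were higher at an adjusted p under 0.05, against 28.8% of all genes, and the median log2 difference was 0.78. Of these, 8 were called (30.8%, against 3.1% of all genes called higher). The count was 26 in each alternative run, including those without RBPMS-KD 2 and with library totals only.

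Ppp1r15a, which reverses the block of translation, stood at 187, 210 and 207 CPM in RBPMS-KD, 98.9, 107 and 77.6 CPM in control and 63.3, 65.5 and 64.0 CPM in RBFOX2-KD. Control libraries lay between the knockdowns, and the log2 difference was 1.65 (SE 0.083, adjusted p = 4.63e-11). Trib3, a pseudokinase that restrains this pathway, stood at 58.4, 68.3 and 66.2 CPM against 25.0, 24.9 and 22.4 CPM, and Chac1, which degrades glutathione, at 66.1, 74.6 and 72.3 CPM against 27.6, 27.8 and 26.7 CPM. For both genes RBFOX2-KD overlapped with control, at 16.5 to 24.5 CPM and 24.5 to 36.6 CPM, while RBPMS-KD lay above. Sesn2, a sensor of leucine and stress, was higher in RBPMS-KD by 1.48 (SE 0.053), where RBPMS-KD overlapped with control and RBFOX2-KD, at 40.1 ± 1.75 CPM, lay under control at 109 ± 6.68 CPM. The other members were named for their roles after their values were seen. Among them the chaperones Hspa5 and Hsp90b1 averaged 2542 ± 149 against 1273 ± 14.7 CPM and 2728 ± 111 against 1541 ± 35.2 CPM, and the transcription factors Atf4 and Ddit3 were higher by 0.77 (SE 0.056) and 0.76 (SE 0.10).

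Genes of the interferon response went the other way. Type I interferons act through a cell surface receptor and transcription factors that bind response elements of antiviral genes. Of 32 members tested, 24 were lower in RBPMS-KD, against 27.9% of all genes, 1 was higher (Ifit2, at 0.28) and 7 did not pass, with a median log2 difference of -0.53. Of the members 7 were called, all lower (21.9%, against 4.41% of all genes called lower). The number lower was 25 without RBPMS-KD 2 and lay between 21 and 27 over the alternatives. Irf7, a transcription factor that amplifies the response, stood at 24.9, 27.9 and 29.7 CPM in RBPMS-KD and at 80.6, 62.9 and 53.5 CPM in RBFOX2-KD, against 19, 20.8 and 19.8 CPM in control. Mx1 and Mx2, antiviral GTPases, had log2 differences of -1.52 (SE 0.26) and -1.16 (SE 0.16), and Cmpk2, a mitochondrial nucleotide kinase, of -1.11 (SE 0.078). The call of Mx2 was lost without RBFOX2-KD 1 (-0.91). For Irf7 and Cmpk2 both knockdowns lay above control and RBFOX2-KD was the highest. Isg15, Oasl and Ifit3 had positive differences that did not pass, at 0.31 (95% interval 0.02 to 0.60), 0.36 (-0.05 to 0.77) and 0.23 (-0.21 to 0.67). Isg15 and Oasl passed with the 6 libraries alone, at 0.32 and 0.36, and Isg15 also at 0.43 without RBFOX2-KD 1.

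**Figure D4:**
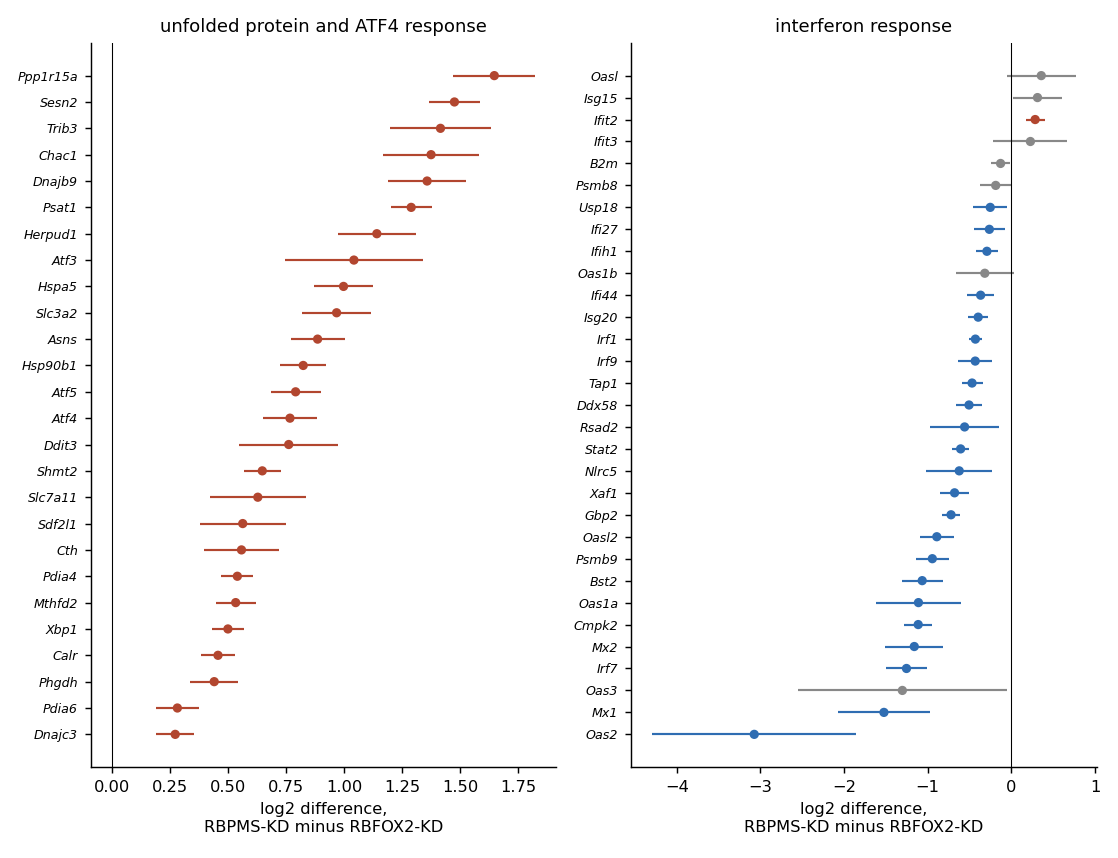
Points are log2 differences, RBPMS-KD minus RBFOX2-KD, with unadjusted 95% intervals, for the 26 tested genes of the unfolded protein and ATF4 response and 31 of the 32 of the interferon response. Red and blue mark genes higher or lower at an adjusted p under 0.05 and grey those that did not pass. All 26 genes of the former lie right of 0, and 23 of the latter lie left of 0 in blue.

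Promoters of the unfolded protein and ATF4 list and of the interferon list are described as background. The matches rest on which tested genes the lists hold and on no difference between the libraries. They therefore have no bearing on the differences between the knockdowns. RefSeq promoters on the GRCr8 build, from 250 bases before to 50 bases after the start of a gene, were found for 24 of the 26 and 24 of the 32 tested members. The endoplasmic reticulum stress response element was searched on both strands as CCAAT and CCACG with any 9 bases between them, and matched 5 of 24 unfolded protein and ATF4 promoters (20.8%), 0 of 24 interferon promoters and 21 of all 27457 promoters (0.0765%). A form of the ATF4 composite element, TGATGNAA, matched 3 of 24, 1 of 24 and 1048 of 27457 (3.82%). A form of the interferon-stimulated response element, GAAA repeated after any 2 bases, matched 17 of 24 interferon promoters (70.8%), 0 of 24 unfolded protein and ATF4 promoters and 1034 of 27457 (3.77%). Genes with a match were Calr, Dnajc3, Hsp90b1, Hspa5 and Xbp1 for the first element and Chac1, Herpud1 and Trib3 for the second. The 17 interferon genes with a match to the third included Ifit3, whose positive difference did not pass. A match describes these letters and not a bound site. In the promoters printed here, capitals mark the matches. Hspa5 and Trib3 are shown for the stress elements and Irf7 and Oas1a for the interferon element. These genes were picked for large absolute differences in these libraries, among matched genes with an adjusted p under 0.05.
Hspa5 (chr3:38452766-38453065, plus strand): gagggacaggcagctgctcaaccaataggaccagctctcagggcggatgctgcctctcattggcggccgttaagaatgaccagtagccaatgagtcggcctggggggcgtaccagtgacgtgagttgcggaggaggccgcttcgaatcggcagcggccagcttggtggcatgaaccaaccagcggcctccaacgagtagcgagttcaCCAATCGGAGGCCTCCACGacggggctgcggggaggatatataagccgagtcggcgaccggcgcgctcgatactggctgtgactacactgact
Trib3 (chr3:161275484-161275783, minus strand): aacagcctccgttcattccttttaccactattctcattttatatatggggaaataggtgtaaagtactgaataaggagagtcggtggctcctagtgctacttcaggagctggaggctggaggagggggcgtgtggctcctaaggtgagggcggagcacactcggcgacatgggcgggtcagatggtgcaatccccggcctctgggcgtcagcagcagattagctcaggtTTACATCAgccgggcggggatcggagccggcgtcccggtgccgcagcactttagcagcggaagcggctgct
Irf7 (chr1:205799974-205800273, minus strand): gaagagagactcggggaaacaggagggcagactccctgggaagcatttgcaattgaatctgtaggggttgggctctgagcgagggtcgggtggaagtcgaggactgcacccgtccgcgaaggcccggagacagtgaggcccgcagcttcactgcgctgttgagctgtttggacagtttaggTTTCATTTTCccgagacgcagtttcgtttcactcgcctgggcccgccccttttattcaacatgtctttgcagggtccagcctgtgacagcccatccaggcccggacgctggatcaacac
Oas1a (chr12:41330216-41330515, plus strand): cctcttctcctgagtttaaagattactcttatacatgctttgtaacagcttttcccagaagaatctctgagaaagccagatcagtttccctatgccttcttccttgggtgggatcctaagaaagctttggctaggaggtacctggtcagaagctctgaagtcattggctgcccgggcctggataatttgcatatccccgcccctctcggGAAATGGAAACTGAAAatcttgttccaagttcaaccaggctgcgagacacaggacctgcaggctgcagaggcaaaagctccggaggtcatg
The match is on the reverse strand in Trib3 and Irf7, and 2 overlapping matches form the capitals of Oas1a. Oas1a, a synthetase of oligoadenylates with close relatives in the genome, had a log2 difference of -1.11 (SE 0.24), and its call was lost without RBPMS-KD 1 (-0.92) or RBFOX2-KD 1 (-0.88).

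Cell cycle genes were modestly higher in RBPMS-KD. Of 28 genes of DNA replication 21 were higher and 1, E2f1, lower (-0.16), with a median log2 difference of 0.26. Of 25 mitotic genes 20 were higher and 0 lower, with a median of 0.25. Without RBPMS-KD 2 the numbers higher were 23 and 21, and with library totals only they were 15 and 17. Cdc6 and Mcm10, which load and activate the replicative helicase, averaged 61.5 ± 1.94 against 33.9 ± 0.371 CPM and 45.5 ± 1.86 against 25.5 ± 0.963 CPM. Orc1 and Cdt1, which act in the same loading step, were higher by 0.72 (SE 0.046) and 0.70 (SE 0.045). The spindle checkpoint kinase Bub1b was the 1 call of both lists, or 4% of the mitotic genes, against 3.1% of all genes called higher. It stood at 120, 113 and 119 CPM in RBPMS-KD, 101, 104 and 103 CPM in control and 45.4, 48.4 and 46.7 CPM in RBFOX2-KD. Control lay between the groups for Bub1b, and its log2 difference was 1.32 (SE 0.036). Anln and Kif23, which act in cytokinesis, were higher by 0.92 (SE 0.044) and 0.84 (SE 0.031). Mki67, the usual proliferation marker, stood at 517, 426 and 492 CPM against 475, 472 and 503 CPM, so the groups overlapped, with an interval of the difference from -0.13 to 0.10 (adjusted p = 0.83). In the normalised table Mki67 passed at -0.20.

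The smooth muscle contractile genes did not move as a block. Of 31 tested members 17 were higher and 7 lower in RBPMS-KD, with a median log2 difference of 0.19. The single call, Cnn1, made 3.23%, close to the 3.1% of all genes called higher. With library totals only the numbers were 16 higher and 12 lower, and in the table normalised by the authors they were 11 higher and 10 lower. Cnn1, which encodes calponin, stood at 2.59, 2.35 and 2.81 CPM in RBPMS-KD and at 1.52, 1.02 and 1.08 CPM in RBFOX2-KD, both under control at 6.65, 6.10 and 6.54 CPM, a log2 difference of 1.09 (SE 0.13). This call was lost with library totals only (0.996) and without RBFOX2-KD 2 (0.995). Acta2, smooth muscle alpha actin, stood at 303, 330 and 313 CPM against 250, 228 and 210 CPM, with 973 to 1006 CPM in control. For Acta2 the difference between the knockdowns was 0.46 (SE 0.054), with both far under control. Tagln, the actin-binding protein transgelin, was higher by 0.66 (SE 0.054), Pdlim7, a scaffold of actin fibres, by 0.91 (SE 0.033) and Rock1, a kinase that sustains myosin phosphorylation, by 0.71 (SE 0.040).

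Myh11, smooth muscle myosin heavy chain, was lower in RBPMS-KD instead, at 8.67, 7.69 and 8.32 CPM against 12.8, 13.6 and 13.7 CPM, with 6.34 to 6.72 CPM in control (log2 difference -0.70, SE 0.078). Synm, the intermediate filament protein synemin, was lower by the largest amount in the list, at -0.86 (SE 0.058), with control between the groups. Smtn, smoothelin, had -0.28 (SE 0.039) and Mylk, myosin light chain kinase, -0.32 (SE 0.12, adjusted p = 0.031), which did not pass at -0.24 without RBPMS-KD 2, nor at -0.23 and -0.33 without RBFOX2-KD 1 and 2. Myl9, the regulatory light chain, stood at 120, 137 and 130 CPM against 140, 136 and 128 CPM, which overlapped, with an interval from -0.16 to 0.03, although it passed at -0.11 without RBPMS-KD 2 and at -0.16 with library totals only. Myocd, the coactivator of smooth muscle genes, was at 24.8 ± 2.32 and 22.7 ± 0.36 CPM, with an interval from 0.000 to 0.25 and an adjusted p of 0.081, and it passed at 0.20 without RBPMS-KD 2. Its partner Srf, by contrast, stood at 69.9, 67.2 and 74.6 CPM against 34.2, 34.4 and 32.7 CPM, with 98.0 ± 1.74 CPM in control, a log2 difference of 1.06 (SE 0.040). Klf4, a factor that opposes contractile genes, stood at 220, 225 and 224 CPM against 112, 103 and 107 CPM, a log2 difference of 1.05 (SE 0.046), and RBFOX2-KD overlapped with control. Of 19 smooth muscle transcription factors 7 were higher and 7 lower. Srf and Klf4 were the calls (10.5%, against 3.1% of all genes called higher), and with library totals only neither was called (0.96 and 0.95). Sox9, a cartilage factor, was lower, at -0.68 (SE 0.053).

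Matrix genes were more often lower in RBPMS-KD. Of 9 fibroblast markers 5 were lower and 1 higher, with a median of -0.58, and their part in the result was not tested. That list shares Dcn with the matricellular genes below and holds the collagen gene Col15a1. Summed CPM of the markers overlapped between the groups, at 1152 to 1330 in RBPMS-KD and 1130 to 1153 in RBFOX2-KD. Of 21 collagen genes tested 13 were lower and 2 higher, with a median log2 difference of -0.27, and of 20 genes of elastic fibres and crosslinking 11 were lower and 3 higher, with the same median. Col6a3 and Col12a1, of microfibrillar and fibril-associated collagens, averaged 33.2 ± 5.42 against 66.4 ± 1.99 CPM and 219 ± 32.4 against 417 ± 7.18 CPM. Col4a5, of basement membranes, was at -0.72 (SE 0.054), and Col7a1, of anchoring fibrils, was higher by 1.04 (SE 0.11). The call of Col6a3 was lost without RBPMS-KD 2 (-0.88), RBFOX2-KD 1 (-0.997) or RBFOX2-KD 3 (-0.98), and that of Col7a1 without RBPMS-KD 2 (0.92) or RBFOX2-KD 1 (0.98). The major fibrillar collagen gene Col1a1, named after its values were seen, did not pass, with an interval from -0.06 to 0.24, but passed at a log2 difference of 0.17 without RBPMS-KD 2. Among elastic fibre genes Loxl3, a lysyl oxidase, and Ltbp1, which stores latent TGF-beta, were lower at -0.57 (SE 0.038) and -0.47 (SE 0.043), and Ltbp2 was higher by 0.53 (SE 0.060).

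Among 24 matricellular and synthetic phenotype genes 10 were lower and 5 higher. Tnc, the matricellular protein tenascin C, stood at 195, 158 and 180 CPM in RBPMS-KD and at 371, 359 and 359 CPM in RBFOX2-KD, against 113, 119 and 135 CPM in control, a log2 difference of -1.03 (SE 0.065), and at -0.96 without RBPMS-KD 2 it was not called. Fmod and Dcn, small leucine-rich proteoglycans, were lower at -1.44 (SE 0.10) and -1.26 (SE 0.22), and Ccn4, a CCN family protein, was higher by 1.04 (SE 0.048), a call lost without RBFOX2-KD 3 (0.998). Of 26 proteases and inhibitors 8 were higher and 8 lower. Adamts4, an aggrecanase, averaged 4.35 ± 0.413 against 12.6 ± 0.451 CPM and Adam19, a membrane metalloprotease, 502 ± 54.8 against 284 ± 6.76 CPM.

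Guidance cues and cyclic nucleotide signalling were also lower on balance. Of 39 axon guidance genes 22 were lower and 7 higher (median -0.32). The 4 called genes (10.3%, against 4.41% of all genes called lower) were all lower, namely Plxna4, Plxnb1, Slit3 and Epha3. The call of Plxna4 was lost without RBPMS-KD 2 (-0.77), RBFOX2-KD 2 (-0.97) or RBFOX2-KD 3 (-0.94). Slit3, a secreted ligand of ROBO receptors, and Plxnb1, a semaphorin receptor, had log2 differences of -1.60 (SE 0.23) and -1.21 (SE 0.11). Of 19 genes of cGMP and cAMP signalling 11 were lower and 3 higher (median -0.22). Gucy1a1 and Gucy1b1, the subunits of the nitric oxide receptor guanylyl cyclase, averaged 3.96 ± 0.43 against 12.5 ± 1.61 CPM and 56.7 ± 1.4 against 105 ± 6.52 CPM, with 12.8 to 23.7 CPM and 231 to 306 CPM in control. Pde5a, which degrades cGMP, was higher in RBPMS-KD by 0.91 (SE 0.081). Both subunits were lower in RBPMS-KD than in RBFOX2-KD and control, and for Gucy1a1 RBFOX2-KD overlapped with control. In QKI-KD they were lower still, at 1.3 ± 0.189 and 11.8 ± 0.713 CPM.

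Ligands and receptors split within families. Of 37 TGF-beta and BMP genes 18 were lower and 9 higher (median -0.14). Tgfb3, a TGF-beta ligand, stood at 128, 127 and 129 CPM in RBPMS-KD, 199, 194 and 205 CPM in control and 262, 277 and 260 CPM in RBFOX2-KD, a log2 difference of -1.06 (SE 0.041). Bmp2, a BMP ligand, was higher instead, at 21.4 ± 2.12 against 6.85 ± 0.218 CPM (1.64, SE 0.096). Of 35 growth factor ligands and receptors of the PDGF, FGF, HGF, EGF and VEGF families 14 were lower and 8 higher. Pdgfd and Fgf1 had log2 differences of -2.13 (SE 0.25) and -1.21 (SE 0.070). Vegfc, a ligand of lymphatic vessels, was higher by 1.47 (SE 0.054), with both knockdowns under control at 34.6 ± 1.11 CPM. In the IGF axis Igf2bp3, an RNA-binding protein, stood at 81.8, 73.7 and 82.1 CPM against 26.4, 25.2 and 26.0 CPM, with 61.6 to 62.8 CPM in control, a log2 difference of 1.61 (SE 0.048).

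Of 37 cytokine, chemokine and receptor genes 19 were higher and 7 lower in RBPMS-KD (median 0.28). Ccl2, the monocyte chemoattractant, stood at 59.3, 73.2 and 67.9 CPM in RBPMS-KD and at 21.6 ± 1.57 CPM in RBFOX2-KD, against 12.2, 14.8 and 8.58 CPM in control, so both knockdowns lay above control. Il1r1, the interleukin 1 receptor, stood at 69.8, 63.6 and 74.1 CPM against 23.3, 24.9 and 23.6 CPM, with 29.4 to 30.8 CPM in control. Il6r, the interleukin 6 receptor, stood at 40.8, 38.1 and 40.1 CPM against 16, 16.9 and 16 CPM. For Il6r both knockdowns lay under control, which stood at 58.1, 59.7 and 59.9 CPM. Their log2 differences were 1.63 (SE 0.13) for Ccl2, 1.53 (SE 0.049) for Il1r1 and 1.28 (SE 0.042) for Il6r. Cx3cl1, the chemokine fractalkine, went the other way, at 12.7, 12.4 and 13.8 CPM against 43.5, 47.9 and 41.1 CPM (-1.77, SE 0.094). Il1rl1, the interleukin 33 receptor, was high in both knockdowns, at 207, 197 and 207 CPM and at 223, 242 and 229 CPM, against 12.3 to 12.6 CPM in control, and differed between them by -0.18 (SE 0.066, adjusted p = 0.025), which did not pass at -0.15 and -0.19 without RBFOX2-KD 2 and 3.

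Without RBPMS-KD 2 the numbers of members lower and higher were 13 and 4 for collagens, 11 and 3 for elastic fibres and crosslinking, 9 and 7 for matricellular genes, 20 and 8 for axon guidance, 10 and 3 for cGMP and cAMP signalling and 16 and 9 for TGF-beta and BMP genes. They were 13 and 10 for the growth factor families, 7 and 6 for integrins, 4 and 5 for the dystrophin complex, 8 and 7 for proteases and inhibitors and 7 and 9 for smooth muscle transcription factors. For lists with more members higher they were 6 and 18 for cytokines, 8 and 17 for glycolysis and hypoxia, 7 and 16 for xenobiotic genes, 8 and 10 for sterol and fatty acid synthesis, 5 and 18 for other splicing regulators and 8 and 14 for immediate early genes.

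**Figure D5:**
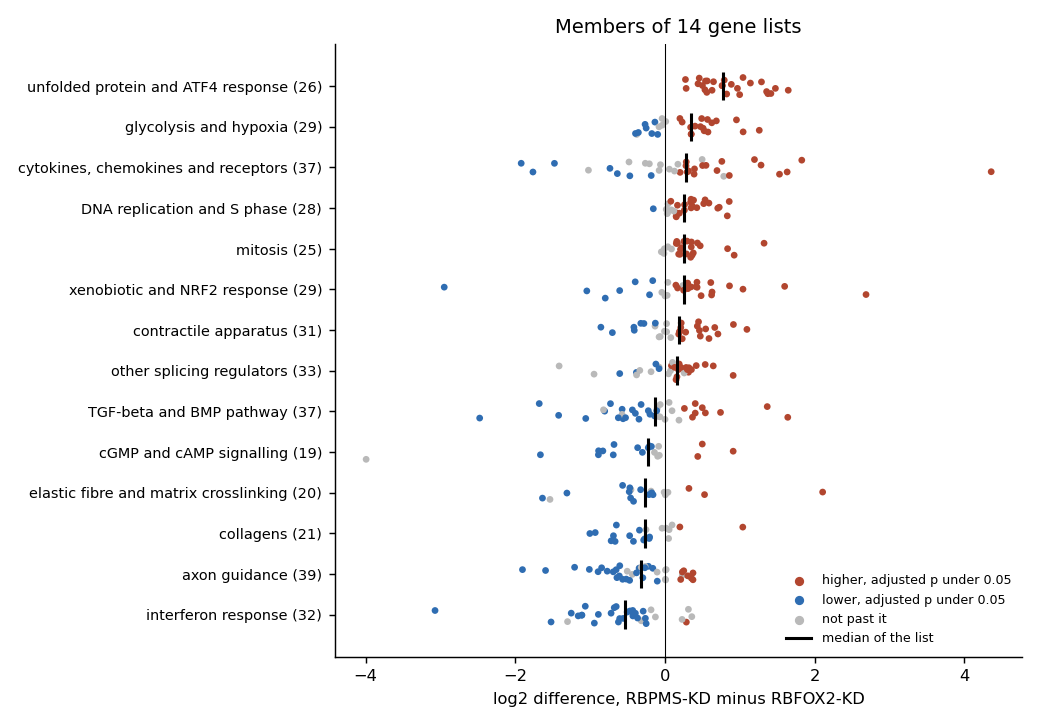
Each point is a tested member of 1 of 14 gene lists (number tested in brackets), placed by its log2 difference, RBPMS-KD minus RBFOX2-KD, with black bars at the medians. Red and blue mark members higher or lower at an adjusted p under 0.05. Medians run from 0.78 for the unfolded protein and ATF4 response to -0.53 for the interferon response.

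Metabolic and redox genes were mixed. Of 29 glycolysis and hypoxia genes 17 were higher and 7 lower (median 0.34), and of 29 xenobiotic and NRF2 genes 17 were higher and 7 lower (median 0.25). Ak4, a mitochondrial adenylate kinase, averaged 21.6 ± 0.357 against 9.03 ± 0.0512 CPM, both under control at 65.7 ± 1.45 CPM. Srxn1, the sulfiredoxin induced by NRF2, was higher by 1.60 (SE 0.069). Ephx1, microsomal epoxide hydrolase, was lower at -1.05 (SE 0.097), a call lost without RBPMS-KD 1 (-0.999) or RBFOX2-KD 2 (-0.97). Aldh3a1, an aldehyde dehydrogenase, stood at 31.7, 45.2 and 40.3 CPM against 37.0, 39.7 and 40.5 CPM, both far above control at 2.06 to 2.54 CPM, with an interval of the difference from -0.20 to 0.20. In sterol and fatty acid synthesis 11 of 27 genes were higher and 7 lower. The sterol oxidase Msmo1 was the 1 call (3.7%, against 3.1% of all genes called higher). It stood at 150, 169 and 159 CPM against 54.7, 57.4 and 58.2 CPM (1.49, SE 0.046).

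Of 33 other splicing regulators 19 were higher and 4 lower in RBPMS-KD, with a median of 0.16. In edgeR 0 were called, against 7.52% of all genes. With library totals only, 13 were higher, and 12 were higher in the authors' normalised values. Ptbp3, a PTB family protein, had the largest absolute difference among the members past the adjusted p, at 194, 172 and 186 CPM against 96.5, 98.4 and 98.2 CPM, with 262 to 277 CPM in control (0.91, SE 0.041). The related proteins Tial1 and Tia1 moved in opposite directions, by 0.64 (SE 0.031) and -0.61 (SE 0.051). Of 30 immediate early and MAPK feedback genes 13 were higher and 11 lower. All 6 calls (20%, against 3.1% of all genes called higher) were higher. Ier3, an early response gene, averaged 160 ± 13.8 against 56.0 ± 0.566 CPM, Dusp1, a phosphatase of MAP kinases, 152 ± 4.48 against 60.1 ± 0.492 CPM, and Fos, an AP-1 subunit, 11.2 ± 1.08 against 4.83 ± 0.355 CPM.

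Markers of other cell types were summed, and their part in the differences was not tested. Summed endothelial markers stood at 15.0 to 16.1 CPM in RBPMS-KD and 11 to 11.9 CPM in RBFOX2-KD, with 2 of 10 genes at or under the floor of 3 counts in each group. Summed epithelial markers stood at 53.3 to 60.5 CPM against 86.8 to 89.8 CPM, mostly Krt8 at 39.9 ± 4 against 72.6 ± 0.975 CPM. Leukocyte markers summed to 3.11 to 3.70 CPM and 3.09 to 3.76 CPM, which overlapped. Cardiac and skeletal muscle markers summed to 7.77 to 8.68 CPM and 10.5 to 12.6 CPM, and neural markers to 5.31 to 6.26 CPM and 5.05 to 6.00 CPM. Fibroblast markers, many of which smooth muscle cells also express, summed to 1152 to 1330 CPM and 1130 to 1153 CPM, most of it S100a4, which was higher in RBPMS-KD by 0.48 (SE 0.063). Of the 9 markers of this list that were tested 5 were lower in RBPMS-KD, among them Col15a1 at -0.67 (SE 0.038), Lum at -0.74 (SE 0.16), Pdgfra at -0.58 (SE 0.11) and Dcn at -1.26 (SE 0.22), with a median of -0.58 over the list. Mitochondrially encoded transcripts held 26922 to 29682 CPM and 28615 to 29660 CPM. The smooth muscle genes Acta2, Tagln, Myl9, Smtn, Myocd, Cnn1, Myh11 and Mylk were detected in every library. Cnn1, Myh11 and Mylk averaged 2.59, 8.23 and 2.02 CPM in RBPMS-KD and 1.21, 13.4 and 2.52 CPM in RBFOX2-KD. In bulk RNA, fewer cells of a kind and less RNA per cell cannot be told apart.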

How the data were processed

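Poly(A)-selected RNA of PAC1 cells was sequenced as stranded paired-end libraries, 3 per group in 4 groups. The authors aligned reads with STAR to mRatBN7.2 and deposited raw counts per gene from featureCounts. The submitters' processing notes name STAR 2.5.2a, FastQC 0.11.2, MultiQC 1.8, edgeR 3.28.1 and DESeq2 1.30.0, whereas the study's methods name other versions of STAR, FastQC and MultiQC and a subsampling of reads to an equal depth. The deposited totals are unequal, at 110.6 to 151.7 M counts over the 12 libraries. Whether the mates of a read pair were counted singly is not stated, so these totals cannot be set against that depth. Which processing made the files was not resolved. Settings for strand and for reads shared by several genes are not given in the sources used here. The authors also deposited a quantile-normalised signal table after a noise filter (noisyR), which holds 22320 genes and was used only as an alternative. Among counts from 1 to 19, 68.0% were even, against 50.7% above 1000, and the reason was not tested.

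Counts were analysed in R 4.3.3 with edgeR 4.0.16, using filterByExpr, TMM scaling and the quasi-likelihood test with 1 coefficient per group over all 12 libraries (common dispersion 0.00241). The log2 difference was tested between the RBPMS-KD and RBFOX2-KD coefficients, with Benjamini-Hochberg adjustment over 18438 genes. Its SE is the absolute log2 difference divided by the square root of F, and intervals are unadjusted 95% intervals. CPM are counts divided by the TMM-scaled library size and cannot be compared between genes, because they are not divided by length. An exact permutation test of 3 against 3 libraries cannot go below p = 0.1 and was not used. The p-values set each difference against a spread between libraries of a group that was estimated over all 12. Control and QKI-KD libraries thus entered the SEs and p-values, though not the differences. With the 6 libraries alone, 9806 of 17628 tested genes had an adjusted p under 0.05.

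The comparison and the gene lists were chosen with earlier results of these data known. Named genes were the siRNA targets and their families, the 10 called genes with the largest difference in each direction among those with at least 5 CPM, no overlap and a true symbol, the 4 with control libraries in between, the 4 most abundant called genes, up to 4 members per list, and smooth muscle markers and genes an earlier account had named. Ifit2, Isg15, Oasl, Ifit3, E2f1 and S100a4 were also named with their values known and are not marked where they appear. Other genes outside these rules are marked as chosen after their values were seen or were named for a promoter match. Scripts were tested on simulated data. A count of 3 was taken as the floor, and 0 sample columns were left unmatched. Alternatives were RLE factors, library totals, other filters, DESeq2 1.42.0, only the 6 libraries compared, a replicate block, single libraries left out, limma 3.58.1 on the normalised table, halved counts and other call rules. Some genes are not reported here, although they were tested and stay in the counts.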

Additional observations from a re-analysis of the deposited data

How the results depend on the processing

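RLE factors, no filter on low counts, DESeq2, the 6 libraries alone and halved counts kept the number of calls within 1.5 times of 1386, and DESeq2 gave 1393. With library totals only, 26 abundant genes (over 50 CPM) were lower and 31.0% of calls were higher. When genes had to average 200 counts or more, 435 genes were called, 252 higher and 183 lower (57.9% higher), out of fewer genes tested. In the normalised table, 490 genes were lower with a pseudocount of 1 (22 abundant, 53.3% of calls higher). With a pseudocount of 10 there were 688 calls, 291 lower (21 abundant, 57.7% higher). The values of that table match quantile-normalised counts with a constant added to every count, so each pseudocount came on top of that constant. The cause of these shifts was not tested. By adjusted p alone the counts were 10455, 5312 higher and 5143 lower, with 2207 and 1356 among abundant genes. A test against a log2 difference of 1 (glmTreat) called 313 genes, 199 higher and 114 lower (5 abundant, 63.6% higher).

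Leaving out 1 library at a time gave 1269 to 1401 calls, 546 to 590 higher and 699 to 811 lower, or 41.1% to 45.4% higher. Among abundant genes 87 to 95 were higher and 8 to 19 lower, with 8 without RBPMS-KD 2 and 19 without RBPMS-KD 3. No shared effect of replicate number was seen. Deviations of same-numbered libraries correlated at 0.028, 0.035 and -0.0096, against at most 0.038 for libraries with different numbers. The labels do not say whether same-numbered libraries were prepared together, and these values cannot show it. With the replicate block 1361 genes were called, 563 higher and 798 lower.

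Differences near 0 changed sign. Aldh3a1 was at 0.00404 with the 6 libraries alone, and leaving out 1 library gave -0.12 to 0.13, the latter without RBPMS-KD 1. Mki67 lay between -0.0729 and 0.063, the latter without RBPMS-KD 2, when 1 library was left out. Col1a1 was at -0.0038 with library totals only and at 0 in the normalised table. Many calls rested on few reads, which limits what single genes under 0.5 CPM can show.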
